A study of Mus musculus with 11 samples.

Results

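The genes described here form the core of the switch that takes a dividing cell out of G1: the D-type cyclins Ccnd1, Ccnd2 and Ccnd3, the kinases Cdk4 and Cdk6, the pocket proteins Rb1 and Rbl1, and the transcription factors E2f1, E2f2 and E2f3. They are 10 of 10568 genes tested, and every probe that the array platform names for them was taken, 24 of 45281 probes. RNA came from basal progenitors that were sorted by FACS from embryonic mouse cortex. There were 6 arrays at embryonic day 13 (E13) and 5 at embryonic day 16 (E16), each of them 1 embryonic cortex. The labels of the raw data columns carry the suffix WT, read here as wild type, and no treatment is named. Each stage drew on 3 litters, so the p-values below treat as independent some embryos that share a litter. The litter of each embryo and the marker of the sort were not known here.

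Basal progenitors, also called intermediate progenitors, divide away from the ventricle and give rise to most cortical neurons. In G1 a D cyclin binds Cdk4 or Cdk6, and the active kinase phosphorylates Rb1 and its relatives. Phosphorylated pocket proteins release E2f factors, which switch on genes for DNA synthesis, and E2f1 is itself among the genes that E2f factors drive. In mouse cortex, forced expression of Cdk4 with cyclin D1 is known to shorten G1 and to expand the basal progenitors.

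Of the 10 genes, 6 were lower at E16, 1 was higher and 3 did not pass the test (limma, adjusted p under 0.05 over all genes). The 6 were Ccnd1, Cdk4, Rbl1, E2f1, E2f2 and E2f3. Ccnd1 had the largest difference of the 10, at 2.62-fold lower, followed by E2f1 at 2.0-fold and E2f2 at 1.99-fold lower. Cdk6 was the gene that was higher, and it was not detected at E13. Ccnd2, Ccnd3 and Rb1 did not pass. The called share was 70% of these genes beside 27.1% of all genes tested, of which 13% were higher and 14.1% lower. The median difference was -0.40 on the log2 scale over the 10 genes and -0.0054 over all genes. Cdk6 could pass the detection filter only through its E16 arrays, so it had to differ. Of the other 9 genes 6 were called (66.7%), and their median difference was -0.53. In bulk samples like these, fewer cells that express a gene and less RNA in each cell cannot be told apart.

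The E2f factors are known to bind 8-base words of the form TTTCCCGC, TTTCGCGC, TTTGCCGC and TTTGGCGC. These were looked for on both strands in the 250 bases before each start in RefSeq promoters of assembly GRCm38.p6, which held 10 promoters of 7 of the genes. Ccnd1, Ccnd2 and Rb1 were not matched. No word was found for E2f1, E2f2 and Cdk4, which were lower at E16, or for Cdk6 and Ccnd3. A word was found in Rbl1 and in E2f3, both on the minus strand of their chromosomes and both lower at E16. They are shown from 30 bases ahead of the word to the last base before the start, 5′ to 3′ on the strand of the gene, with the word in capitals.
Rbl1, chr2:157204535-157204582: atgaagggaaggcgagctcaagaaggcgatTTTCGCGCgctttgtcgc
E2f3, chr13:29986064-29986104: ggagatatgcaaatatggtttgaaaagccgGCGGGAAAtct
The Rbl1 word begins 18 bases before the start and reads along the gene strand. The E2f3 word begins 11 bases before the start of 1 of its 2 promoters and is TTTCCCGC read on the other strand. Of all 32851 promoters 1.86% hold such a word, and 2.16% of the genes they belong to have 1 or more. Among the 8572 tested genes with a promoter the share was 3.92%. It was 4.75% of those lower, 3.46% of those higher and 3.84% of those that did not pass. A word in a promoter is a description of the sequence and does not show that a factor binds there.

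Between 43.6% and 45.5% of the probes were detected on an array (detection p under 0.05), at mean intensities from 349 to 481. Of the 24 probes of the 10 genes, 18 were detected on every array, 3 on none and 1 on 1 to 4 arrays. The 20 probes kept for testing gave 10 lower, 2 higher and 8 that did not pass, beside 22.6% called among all kept probes. No gene had probes that passed in opposite directions. Levels below are normalized log2 intensities of the brightest probe of a gene. Levels of different genes come from different probes and are not compared.

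**Figure D1:**
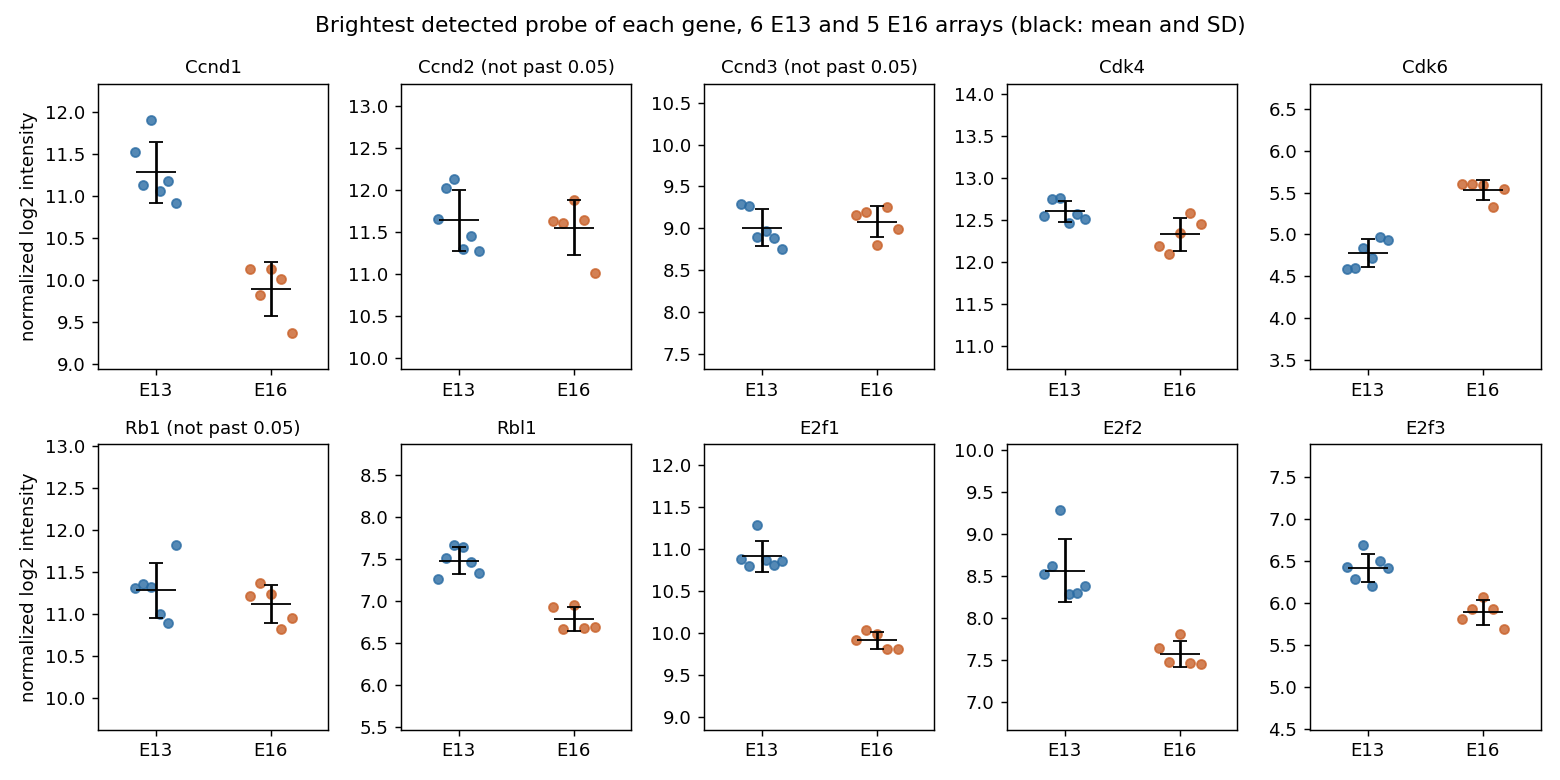
Normalized log2 intensity of the brightest probe of each of the 10 genes, with 1 point per array for the 6 E13 and 5 E16 arrays and a bar at the mean of each stage. The stages do not overlap for Ccnd1, Cdk6, Rbl1, E2f1, E2f2 and E2f3, and Cdk6 alone of these is higher at E16. Cdk6 was not detected on any E13 array.

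Ccnd1, the D cyclin most often linked to growth factor signalling, had E13 levels from 10.92 to 11.91 with a median of 11.16. Its E16 levels were 10.14, 9.82, 10.14, 10.02 and 9.38. Every E16 array was below every E13 array, and the lowest was E16 replicate 5. The means were 11.3 ± 0.365 (SD, n = 6) and 9.90 ± 0.318 (SD, n = 5), and Ccnd1 fell by 1.39 (SE 0.173, adjusted p = 3.10e-05 in limma). Its other probes fell as well (-1.46 and -1.37), so all 3 gave a decrease of nearly the same size. Its difference ranked 214 in size among all genes tested.

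Ccnd2, the D cyclin whose mRNA is known to be carried to the basal endfeet of radial glia, was bright at both stages. Its E13 levels ran from 11.28 to 12.13 with a median of 11.56. At E16 they were 11.63, 11.61, 11.89, 11.65 and 11.01. The stages overlapped, and the difference was -0.09 (95% interval from -0.46 to 0.28, adjusted p = 0.751 in limma). The second probe gave -0.13. A dimmer probe that the platform assigns to another transcript record, ILMN_1225932, went the other way, with E13 levels from 7.17 to 8.25 and a median of 7.88. Its E16 levels were 9.11, 9.01, 8.55, 8.04 and 7.90, so that E16 replicates 4 and 5 lay within the E13 range. It was higher by 0.70 (adjusted p = 0.0462 in limma over all probes), a call that was lost with no detection filter (adjusted p = 0.0632). Its change relative to the brightest probe was 0.79 and did not pass after adjustment over the 10 such probe comparisons (exact permutation test, p = 0.0216, adjusted p = 0.216, 6 and 5 arrays). The last Ccnd2 probe was detected on no array.

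Ccnd3, the remaining D cyclin, had E13 levels from 8.75 to 9.30 with a median of 8.93. At E16 the levels were 9.16, 9.20, 8.81, 9.26 and 8.99, all inside that range. The difference was 0.07 (95% interval from -0.18 to 0.33, adjusted p = 0.704 in limma). Its second probe gave -0.03, and its remaining probe was detected on 0 of 6 E13 arrays and 1 of 5 E16 arrays. Of the D cyclins, therefore, Ccnd1 alone passed with its brightest probe.

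Cdk4, a partner kinase of the D cyclins, was well above background at both stages. Its E13 levels ran from 12.47 to 12.76 with a median of 12.56. The E16 levels were 12.18, 12.09, 12.34, 12.58 and 12.45. E16 replicate 4 lay inside the E13 range, while E16 replicates 1 to 3 and 5 lay below it. The mean of 12.6 ± 0.123 (SD, n = 6) became 12.3 ± 0.198 (SD, n = 5), a decrease of 1.21-fold (log2 difference -0.27, SE 0.0903, adjusted p = 0.0360 in limma). The second probe gave -0.34 (adjusted p = 0.156 in limma over all probes). The call was lost in 10 of 22 alternatives, with adjusted p up to 0.103 without E16 replicate 2.

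Cdk6, the other partner kinase, sat at the detection limit. Its 1 probe was detected on 0 of 6 E13 arrays and on all 5 E16 arrays, where raw intensities were between 23.1 and 33.7. Normalized levels were between 4.59 and 4.97 at E13, with a median of 4.78, and were 5.61, 5.60, 5.59, 5.32 and 5.54 at E16. All E16 arrays were above all E13 arrays. At E13 only a bound can be given, and by that bound the E16 signal of Cdk6 exceeded it at least 1.34-fold. The bound itself was not tested. Because Cdk6 was kept only through its E16 arrays, its call in limma is no support for a change. The stage means of the measured signal were 4.78 and 5.53.

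Rb1, the retinoblastoma protein gene, had E13 levels from 10.89 to 11.82 with a median of 11.31, the highest of them on E13 replicate 6. The E16 levels of 11.22, 11.37, 11.24, 10.82 and 10.95 overlapped with these. The difference was -0.16 (95% interval from -0.48 to 0.15, adjusted p = 0.448 in limma). The second probe gave -0.39 and lay just outside the threshold (adjusted p = 0.0512 in limma over all probes). Neither probe of Rb1 passed, so a change in Rb1 mRNA was not detectable with these 11 arrays.

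Rbl1, the gene for the related pocket protein p107, fell. Its E13 levels ran from 7.26 to 7.66 with a median of 7.49. Its E16 levels were 6.92, 6.66, 6.95, 6.68 and 6.69, all below the E13 range. The decrease was 1.62-fold (log2 difference -0.70, SE 0.117, adjusted p = 4.05e-04 in limma). The second probe, from another transcript record, fell by 0.68, and the remaining probe was detected on no array.

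E2f1, an activator of S phase genes, had the smallest adjusted p of the set. The E13 levels ran from 10.79 to 11.28 with a median of 10.86. Of these, 5 lay between 10.79 and 10.87, and E13 replicate 3 stood above them. The E16 levels were 9.92, 10.03, 9.98, 9.81 and 9.81. E2f1 fell by 1.0 (SE 0.0934, adjusted p = 2.12e-06 in limma), and by 0.93 without E13 replicate 3. It has 1 probe on the array.

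E2f2, a second activator, had E13 levels from 8.28 to 9.29 with a median of 8.45, again with E13 replicate 3 highest. The E16 levels were 7.64, 7.47, 7.81, 7.46 and 7.45, with no overlap. The log2 difference was -0.995 (SE 0.164, adjusted p = 3.67e-04 in limma), and -0.85 without E13 replicate 3. Its second probe fell by 1.05 and its remaining probe was detected on no array.

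E2f3, which completes the activator group, changed less. Its E13 levels ran from 6.21 to 6.69 with a median of 6.43, and its E16 levels were 5.81, 5.94, 6.08, 5.93 and 5.70. The stages did not overlap, and E2f3 fell by 0.53 (SE 0.12, adjusted p = 0.00381 in limma). Raw intensities of this probe were low, from 57.6 to 90.6 at E13 and from 30.4 to 50.6 at E16. The size of its change depended on the processing, at -0.36 with an offset of 50 and -0.69 in the authors' table. The second E2f3 probe gave -0.20 (adjusted p = 0.385 in limma over all probes). The probes differed from each other by 0.33 in their change, which did not pass (exact permutation test, p = 0.0541, adjusted p = 0.271, 6 and 5 arrays).

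**Figure D2:**
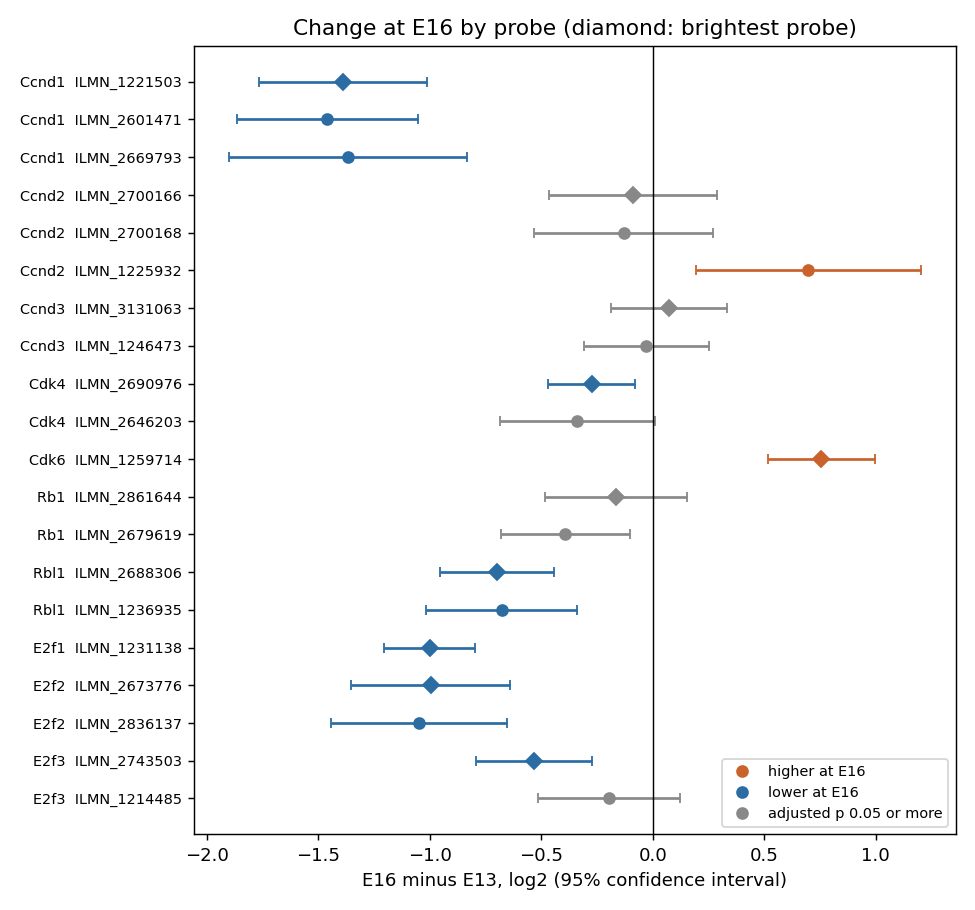
Log2 difference between the stages (E16 minus E13) for each of the 20 kept probes, with 95% intervals, grouped by gene and coloured by call at an adjusted p of 0.05 over all kept probes. The 3 Ccnd1 probes lie between -1.46 and -1.37, and the Ccnd2 probe at 0.70 stands apart from the other Ccnd2 probes.

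Arrays did not overlap between the stages for 5 of the genes with E16 below and for Cdk6 with E16 above, while 17% of all genes tested had no overlap. Cdk6 was kept only through its E16 arrays, so its separation adds nothing here. Within E13, replicate 3 was the highest array for 7 of the 10 genes. It exceeded the E13 mean by 0.62 for Ccnd1, by 0.49 for Ccnd2 and by 0.72 for E2f2. The same array had the highest E13 mean over 14 mitosis genes, at 0.30 above the stage mean, and over 20 genes known as E2f targets, at 0.25 above it. Ccnd1 fell by 1.26 without it. At E16, replicate 5 was the lowest array for Ccnd1, Ccnd2 and the E2f genes, at -1.91 for Ccnd1 and -0.63 for Ccnd2 relative to the E13 mean, but not for Cdk4 or Rb1.

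**Figure D3:**
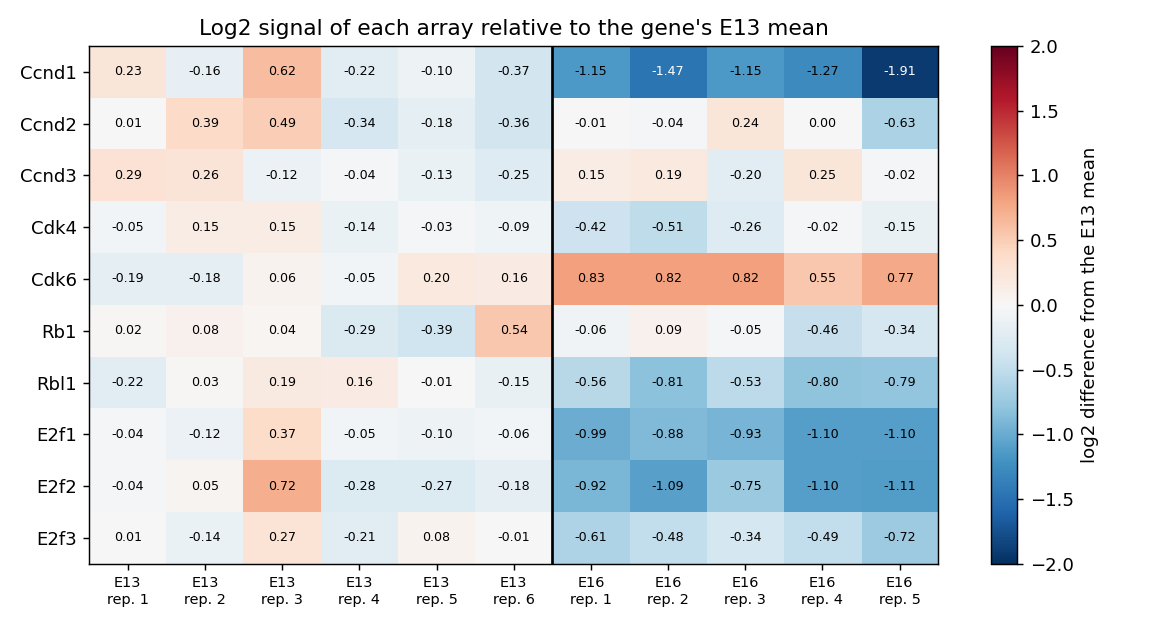
Log2 level of each of the 10 genes on each of the 11 arrays, relative to the mean of the E13 arrays for that gene. E13 replicate 3 is the highest E13 array for 7 genes, and the E16 arrays are lower for Ccnd1, Rbl1, E2f1, E2f2 and E2f3 throughout.

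Whether genes of 1 family shifted relative to each other was examined by the log2 ratio of their probes on the same array, for 8 pairs. A ratio of probes has no meaning as a level, so the change between the stages is what is compared. The ratio passed for 5 of the 8 pairs, 1 of which holds Cdk6, and for 4 of the 7 pairs of genes detected at both stages (two-sided exact permutation test over the 462 splits of 6 and 5 arrays, adjusted over the 8). The smallest p that this design can give is 0.00216.

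Among the D cyclins, Ccnd1 declined relative to both others. The Ccnd1 to Ccnd2 ratio was between -0.90 and -0.13 on the E13 arrays, where E13 replicate 2 was lowest. At E16 it was -1.50, -1.78, -1.75, -1.63 and -1.64. It changed by -1.30, with no overlap (adjusted p = 0.00433, exact permutation test). The Ccnd1 to Ccnd3 ratio changed by -1.46 (adjusted p = 0.00433, exact permutation test). The Ccnd2 to Ccnd3 ratio differed by -0.16 (adjusted p = 0.522, exact permutation test), so no shift between those cyclins passed the test.

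Among the activator E2f genes, E2f3 declined least. The E2f1 to E2f3 ratio lay between 4.31 and 4.65 at E13 and between 3.88 and 4.11 at E16, a change of -0.47 (adjusted p = 0.00433, exact permutation test). The E2f2 to E2f3 ratio changed by -0.46 (adjusted p = 0.0139, exact permutation test), with overlapping arrays. The E2f1 to E2f2 ratio differed by -0.0059, and its sign turned in 8 of 14 alternatives (adjusted p = 0.948, exact permutation test). These values use the E2f3 probe with the larger change, whose signal is low. The E2f1 to E2f3 change was -0.33 with no background correction and in the authors' table, and -0.64 with the mean of probes. It passed in all 14 alternatives, but its size depends on the processing.

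The Rb1 to Rbl1 ratio was higher by 0.53 at E16 and lay just outside the threshold (exact permutation test, p = 0.0390, adjusted p = 0.0519). It passed in 4 of 14 alternatives, with adjusted p = 0.0127 without E13 replicate 6, the array on which Rb1 was highest. The Cdk4 to Cdk6 ratio changed by -1.03. Because Cdk6 was undetected at E13, the size of that change is not a measurement of both genes. Cdk6 was kept only through its E16 arrays, so the passing of this ratio is no support for a shift between the kinases.

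**Figure D4:**
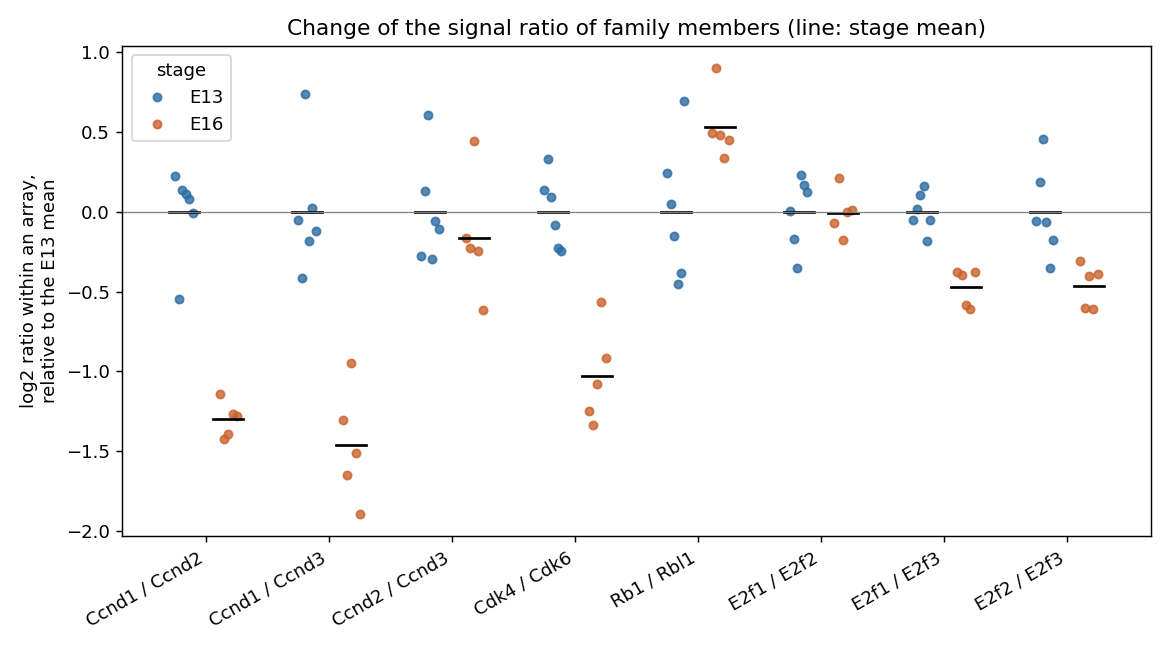
Log2 ratio of the brightest probes of 8 gene pairs on each array, relative to the E13 mean of that pair, for E13 and E16. The ratios of Ccnd1 to Ccnd2, Ccnd1 to Ccnd3, Cdk4 to Cdk6 and E2f1 to E2f3 do not overlap between the stages. Cdk6 was not detected on any E13 array.

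Genes that act with the switch were followed in 6 lists. Among the E-type and A-type cyclins, Cdk2 and the complex that activates these kinases, 4 of 8 tested genes fell, 1 rose and 3 did not pass, with a median of -0.40. The called share was 62.5%, beside 27.1% of all genes. Cyclin E2 (Ccne2), whose signal passed detection on 1 of 5 E16 arrays, fell by 0.73, and cyclin E1 (Ccne1) fell by 0.58. Cdk2, which partners them at the start of S phase, fell by 0.63. Ccna2, the S phase cyclin, was detected on 5 of 6 E13 arrays and 0 of 5 E16 arrays and was lower at E16 by at least 1.24-fold. Ccna2 could pass the detection filter only through its E13 arrays, so it had to differ. Its call adds nothing to the count of this list. Cdk7, the catalytic subunit of the activating kinase, rose by 0.46 (adjusted p = 0.0327 in limma). That call was lost with the replicate number as a block (adjusted p = 0.0932) and with no detection filter (0.0768). Ccna1, Cks1b and Cks2 were detected on no array.

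The other pocket, E2f, Dp and DREAM complex genes mostly did not pass the test. Of 10 tested, 2 fell, 0 rose and 8 did not pass, with a median of -0.23. The called share of 20% was below the 27.1% of all genes. E2f6, a repressor that acts without pocket proteins, fell by 1.06 (SE 0.0909, adjusted p = 9.90e-07 in limma). Mybl2, which works with the DREAM core on mitotic genes, fell by 0.52. The third pocket protein gene, Rbl2, was detected on no array, as were E2f8, Lin9, Lin52 and Mybl1.

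Of 5 INK4 and Cip/Kip genes tested, which encode inhibitors of the kinases, 3 fell, 0 rose and 2 did not pass, with a median of -0.46. The called share was 60%, beside 27.1% of all genes. Those that did not pass were Cdkn1b (0.28) and Cdkn2c (-0.26). Cdkn1a, which encodes p21, fell by 2.93 (SE 0.246, adjusted p = 8.32e-07 in limma). Cdkn1c, which encodes p57, fell by 1.14, and Cdkn2d, the INK4 gene for p19, fell by 0.46. These decreases were measured on the same arrays as the decrease of Ccnd1.

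Genes known to be switched on by E2f factors fell in most cases. Of 20 tested, 15 fell, 0 rose and 5 did not pass, with a median of -0.56. The called share was 75%, beside 27.1% of all genes. Rrm2, a subunit of ribonucleotide reductase, fell by 1.09, and the replication factors Mcm10 (-0.96), Cdc45 (-0.86) and Mcm2 (-0.81) fell too. The list means of the E16 arrays were between -0.71 and -0.43 relative to the E13 mean. In the mitosis list, 13 of 14 tested genes fell (92.9% called) and the median was -1.32. Ube2c, which was detected on 1 of 5 E16 arrays, fell by 1.40, and the spindle and anaphase genes Nusap1 (-1.39), Cdc20 (-1.39) and Birc5 (-1.37) fell. Plk1 was the gene that did not pass (-1.97, adjusted p = 0.0661 in limma). On the E16 arrays this list was between -1.54 and -1.16 relative to the E13 mean.

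In the list of genes for induction and turnover of D cyclins and related SCF ubiquitin ligases, 3 of 14 rose, 1 fell and 10 did not pass. Mycl, a Myc family factor, rose by 0.77. Fbxo31 and Ambra1, which direct ubiquitin ligases to D cyclins, rose by 0.60 and 0.31. Rbx1, the RING subunit of these ligases, fell by 0.18 (adjusted p = 0.0419 in limma), a call lost with the replicate number as a block (adjusted p = 0.0673) and with no detection filter (0.0992). The called share of this list, 28.6%, was close to the 27.1% of all genes, and the median difference was 0.05.

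**Figure D5:**
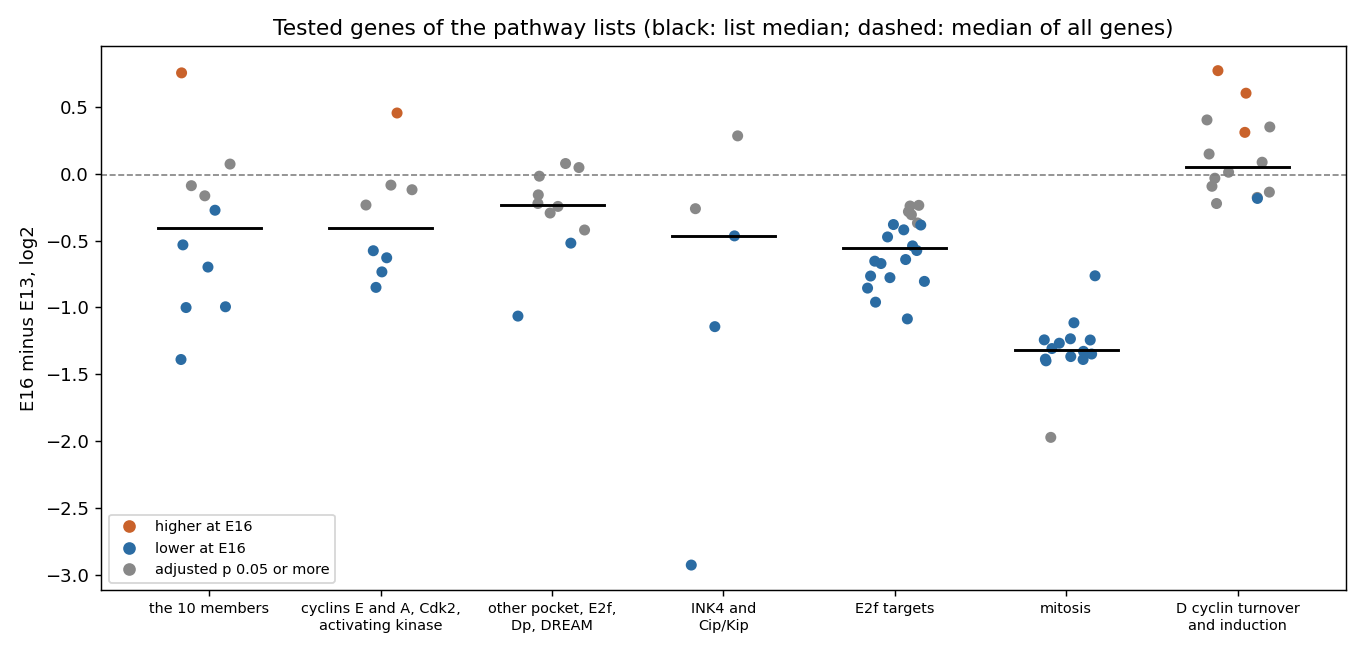
Log2 difference (E16 minus E13) of every tested gene in the 6 lists of genes that act with the switch, with the median of each list marked. The mitosis list has a median of -1.32 and the E2f target list one of -0.56, while the list of D cyclin induction and turnover is centred near 0.05.

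Levels of cell type markers differed between the stages on the same arrays. Basal progenitor markers were present and partly lower: 7 of 12 tested fell and 2 rose, 75% called beside 27.1% of all genes. Eomes and Neurog2, the defining factors, fell (-0.75 and -0.60). The summed level of this list was 30780 to 37150 at E13 and 25480 to 30850 at E16, in normalized intensity less the offset. Markers of Cajal-Retzius cells, which are early-born neurons, fell more, with 6 of 7 lower (85.7% called) and a median of -2.50. Their sum was 11900 to 18210 at E13 and 2711 to 5190 at E16, Reln fell by 1.57, and the Trp73 probe was detected on 2 of the 6 E13 arrays and none at E16. Red cell genes were higher for 3 of 3 tested genes, with sums of 147 to 2361 and 1691 to 5668, and Hba-a1 rose by 2.48.

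Of 14 radial glia markers 3 rose and 3 fell, Pax6 and Sox2 differing by 0.13 and -0.23 without passing, and the sums were 3737 to 5387 and 4299 to 4928. Of 7 interneuron markers 1 rose and 2 fell (42.9% called), and the sums were 255 to 656 and 295 to 494. Gad2 was higher by 0.77. Sst fell (-1.275), its signal passing detection in 5 embryos at E13 and in 2 at E16. Dlx2 passed in 5 embryos at E13 and in none at E16, a decrease of at least 1.3-fold. Only the E13 signal let Dlx2 through the filter, so its call adds nothing to this count. Gad1, near the detection limit with 3 embryos passing at each stage, differed by 0.08. Projection neuron markers summed to 49880 to 63160 at E13 and 49620 to 58890 at E16, with 1 of 11 higher and 3 lower (36.4% called). Neurod1 and Neurod2 differed by -0.09 and 0.26 without passing. Olig1, of the oligodendrocyte lineage, was higher by 1.32, its signal passing detection on 2 of 6 E13 and 5 of 5 E16 arrays. Olig1 passed the filter only with its E16 arrays, so its call adds nothing here. Olig2 was undetected on every array, and the oligodendrocyte lineage list summed to 71.3 to 106 and 114 to 168. Pecam1 and Cdh5 of endothelium, Pdgfrb and Rgs5 of mural cells and Cx3cr1 of microglia were detected on no array. Other markers of these lists were detected, among them endothelial Esam on every array. The mural and meningeal marker Dcn was detected on 4 of 6 E13 arrays and 0 of 5 E16 arrays. Microglial Csf1r was detected on 4 E13 and 3 E16 arrays, and Aif1 on 2 and 3. Those lists summed to 81.1 to 125 and 97.9 to 129, to 82.8 to 107 and 65.3 to 85.1, and to 82.8 to 118 and 96.4 to 132, at E13 and E16 in turn. None of the 3 genes tested in them passed, the microglial receptor gene Csf1r among them at 0.12. The part of other cell types in the differences of the D cyclin, Rb and E2f genes was not tested.

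For each of the 7 called genes, the 3 genes nearest in profile over the 11 arrays were found by the root mean square difference of log2 levels centred per gene. Clone names, predicted genes and symbols without lower-case letters were left out. Ccnd1 was nearest to the histone genes H3c7 (0.169) and H4c1 (0.171), whose probes may be shared with near-identical copies, and then to Ildr2. E2f1 lay nearest to Nde1 (0.103), a centrosomal protein of neural progenitors, then to the centromere protein gene Cenpn and to Mcm10. E2f2 was nearest to the histone chaperone gene Asf1b (0.143), then to Rrm2 and Mcm10. Mcm10 was thus on the lists of both E2f1 and E2f2.

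Rbl1 was nearest to Hirip3 (0.114), followed by Ccdc77 and the Ran GTPase activator Rangap1. E2f3 was nearest to the zinc finger factor Zeb1 (0.118), the Hedgehog effector Gli3 and the deubiquitinase Brcc3. Cdk4, whose profile is nearly flat, was nearest to Ciao2b, Nhp2 and Dcps (0.0796 to 0.0801), none of which passed the test. Cdk6 was nearest to Irf2 (0.0919), Hook2 and Rhebl1, though its E13 values are at background. The median distance to all genes compared in this way was between 0.296 for Cdk4 and 0.783 for Ccnd1.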

How the data were processed

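Probe intensities on a linear scale and their detection p-values were deposited by the authors, per the file headers. Between 26.9% and 29.2% of an array's intensities were below 0, which shows that a background was removed before deposit. The authors' deposited series table holds log2 values of 16554 probes, 18 of the 24 used here, and served as an alternative. The scanner software was not known here. The labels name the mirVana kit for RNA and the Illumina TotalPrep-96 kit for biotin cRNA.

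Intensities were corrected with normexp using detection p-values, raised by an offset of 16, taken to log2 and quantile normalized (limma 3.58.1, R 4.3.3). Probes detected (p under 0.05) on at least 5 arrays were kept, 20599 in all, and the brightest stood for each gene. Symbols came from the platform table: 34885 probes had 1 symbol, 18 several, and 10378 were not listed. Differences were fitted over all genes with lmFit and eBayes with a trend, and adjusted by the Benjamini-Hochberg method at 0.05, two-sided. The fit was tested on simulated data. The number of arrays limits precision (median SE 0.126). For a gene undetected at 1 stage, the bound takes, on each array, its own value or the lowest detected signal, whichever is higher.

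The genes, lists and pairs were chosen with earlier results of these data known. Named were all 10 genes, in each list up to 4 passing genes with the largest differences (2 where none passed), the first 2 of each marker list, and the nearest profiles. Trp73, Plk1, Cdkn1b, Cdkn2c, Csf1r, Aif1, Dcn, Esam, Sst, Dlx2 and the radial glia markers past the threshold were chosen after their values were seen. So was the comparison of probes of a gene. Alternatives changed the scaling (each array centred on the median of its kept probes), background, offset, table, filter, probe choice, weights, trend, replicate block and arrays left out.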

Additional observations from a re-analysis of the deposited data

Results flagged for a closer look

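Of 36 sets of values examined (10 genes and 8 ratios at each stage), 5 held an array whose gap to its nearest neighbour was a large part of the range. That share was above the 95% critical value of Dixon for the number of arrays, and chance gives about 1 in 20. E13 replicate 3 was high for E2f1, at 11.3 beside 10.8 to 10.9 on the other E13 arrays (gap 0.831 of the range). It was also high for E2f2, at 9.29 beside 8.28 to 8.61 (0.672). E16 replicate 4 was low for Cdk6, at 5.32 beside 5.54 to 5.61 (0.777). E13 replicate 2 was low in the Ccnd1 to Ccnd2 ratio, at -0.90 beside -0.37 to -0.13 (0.695). E16 replicate 2 was high in the Rb1 to Rbl1 ratio, at 4.70 beside 4.14 to 4.30 (0.723).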

How the results depend on the processing

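Of the 10 genes, 8 kept their direction and their side of the threshold in every alternative run, the exceptions being Cdk4 and Ccnd2. Cdk6, 1 of the 8, could be fitted in only 20 of the 22. It was kept only through its E16 arrays, so its place in this count is no support for a change. Cdk4 lost its call in 10 of 22, among them the replicate block (-0.29, adjusted p = 0.0805 in limma), with values from -0.34 to -0.21 when 1 array was left out. Ccnd2, which did not pass, changed sign with the mean of its probes (0.16) and with array weights (0.065), and ran from -0.17 to 0.047 with 1 array left out, above 0 without E13 replicate 3 (0.0088) or E16 replicate 5. Cdk6 is not in the authors' table and fails detection under 0.01 on all arrays, so that 0 of 9 genes were higher there, and its difference was 0.39 with an offset of 50. With no detection filter 1 member probe was higher, that of Cdk6, and the Ccnd2 probe ILMN_1225932 lost its call. Replicate numbers did not pair the arrays (correlation of deviations -0.1 to 0.143 over 5 numbers, 1 above 0.1, and 1 E16 array closest to its own number). With the replicate block, as with no detection filter, 0 genes rose in the cyclin E and A list, where Cdk7 lost its call, and 0 fell in the D cyclin induction and turnover list, where Rbx1 did. The Ccnd2 to Ccnd3 ratio turned to 0.14 with the mean of probes. The E2f1 to E2f2 ratio was 0.021 with the mean of probes, 0.045 with no background correction and 0.047 in the authors' table, and ran from -0.077 to 0.0398 with 1 array left out. The E2f2 to E2f3 ratio missed the threshold with no background correction (-0.37, adjusted p = 0.0548, exact permutation test). The Rb1 to Rbl1 ratio passed with the mean of probes (0.41), with no background correction (0.62), in the authors' table (0.62) and without E13 replicate 6 (0.67). Centring on the median of all probes, chosen after seeing the data, gave 966 genes higher and 1616 lower in place of 1373 and 1495, and left the 10 calls as they were. The causes were not tested. At E13 the Cdk6 signal was at background, which limits it to a bound.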
